A study of Mus musculus with 28 samples.

Results

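Respiratory complexes II, III and IV, cytochrome c and ATP synthase (complex V) were described here in single Müller glial cells (MGCs) of degenerating and normal mouse retinas. The members were all genes of the array annotation whose symbol is Sdha to Sdhd, Cyc1 or Cycs, or begins with Uqcr, Cox4 to Cox8 or Atp5, which gave 48 of the 18194 genes that had a probe set with a single gene symbol. Complex II had 4 members, complex III 9, complex IV 17 and complex V 17, and cytochrome c was the remaining gene, Cycs. They were read by 96 probe sets, and where a gene had several, the strongest one in a given cell stood for it.

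Complex II, succinate dehydrogenase, is an enzyme of the tricarboxylic acid cycle that passes electrons from succinate to ubiquinone and pumps no protons. Complex III passes them on to cytochrome c and complex IV to oxygen, both while pumping protons across the inner mitochondrial membrane, and complex V uses the gradient to make ATP. MGCs are known to rely largely on glycolysis, and photoreceptors, which they support, hold most of the mitochondria of the retina.

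The series held 28 arrays, each with the amplified cDNA of 1 cell picked by its shape as an MGC. Rhod-ko mice, in which the rod gene Rhodopsin is deleted, were sampled at 8 weeks (5 cells) and again at 25 weeks (5 cells). The rd1 mice, which carry a mutation in the beta subunit of cGMP phosphodiesterase (Pde6b) on the FVB strain, were sampled at 5 weeks (5 arrays) and at P13 (5 cells). Adult wild-type (WT) C57/BL6 mice, older than 25 weeks by the labels and with a younger minimum age in the study's text, gave 5 cells. Congenic FVB mice with the normal Pde6b gene (FVB.129P2-Pde6b+Tyrc-ch/AntJ) gave 3 cells at P13. Both mutations act in photoreceptors and were carried in the germ line, so no gene was changed in MGCs alone. Among the rd1 arrays at 5 weeks, A5 and A6 were near identical (Pearson r = 0.989 across probe sets, while none of the 377 further pairs passed 0.764) and were averaged, which left 4 cells there and 27 in all.

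The labels do not tie cells to animals, so a condition was treated as a single sample and conditions were compared by description, without tests. The adult WT cells came from an earlier study of the same laboratory, so study of origin, genotype, strain and age cannot be told apart in the 3 comparisons that use them. A gene was called on where its signal reached 2000, and group medians of log2 signals floored at 1000 were called higher or lower when they differed by at least 1, which is 2-fold. Where 1 of the group medians lay under the floor, a fold is a lower bound. Signals have no known depth, and the number of arrays limits their precision.

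Some cells stood apart by their markers. The 3 congenic FVB cells had 3 to 7 of 19 MGC markers on and 9 or 10 of 10 vascular markers, and rd1 P13 cells A1 and B1 had 8 and 6 MGC markers and 10 and 8 vascular markers, whereas all other cells had 13 to 18 MGC markers and at most 3 vascular markers on. By these markers the label MGC did not hold for these 5 cells, which include every congenic FVB cell. At 8 weeks Rhod-ko cells 7 and 8 had 8 and 7 of 13 rod markers on, and cell 7 had 5 of 13 markers of microglia and macrophages, and all P13 cells had 5 to 10 rod markers on. In Rhod-ko cells at 8 weeks the 100 strongest probe sets held 22.2% to 35.7% of the signal and the Gapdh 3' to 5' ratio was 3.95 to 18.2. In adult WT cells that share was 13.4% to 24.6% and the ratio 0.55 to 4.06. The part of these differences in the results was not tested.

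Adult WT cells had fewer members of complexes III, IV and V on than any other cell of the series. Of these 43 members, 31 to 35 were on per cell in Rhod-ko at 8 weeks, 29 to 35 in Rhod-ko at 25 weeks, and 29 to 36 in rd1 at 5 weeks, against 19 to 25 in adult WT. At P13 they were 33 to 38 in rd1 and 34 or 35 in congenic FVB. The 22 cells of the other conditions thus lay between 29 and 38, above every adult WT cell. The number of all genes on was 1970 to 2363 in Rhod-ko cells at 8 weeks and 1858 to 3208 in rd1 cells at 5 weeks, against 1847 to 2603 in adult WT cells, with overlap. It lay above every adult WT cell in Rhod-ko at 25 weeks (2670 to 3123), and also in rd1 at P13 (2841 to 3072) and congenic FVB (2927 to 2998). For the 1513 genes whose median over all cells reached 2000, called expressed genes here, the groups fell in the same way. Of these, 943 to 1127 at 8 weeks in Rhod-ko and 893 to 1251 at 5 weeks in rd1 were on, against 757 to 968 in adult WT, with overlap. The medians were 963 and 1018.5, against 793 in adult WT, so expressed genes leaned the same way in these groups too. Expressed genes were chosen on the same cells. The other groups lay above every adult WT cell, with 1125 to 1243 in Rhod-ko at 25 weeks, 1126 to 1299 in rd1 at P13 and 1043 to 1180 in congenic FVB. Against these, the lower count of adult WT was shared in full by expressed genes in general. In settings chosen after seeing the data, the gap between adult WT and the rest was kept at a threshold of 1000 and under both other scalings, and was lost at 500 (32 to 40 members on in the other cells, 25 to 34 in adult WT) and at 10000 (14 to 32 in the other cells, 7 to 19 in adult WT).

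**Figure D1:**
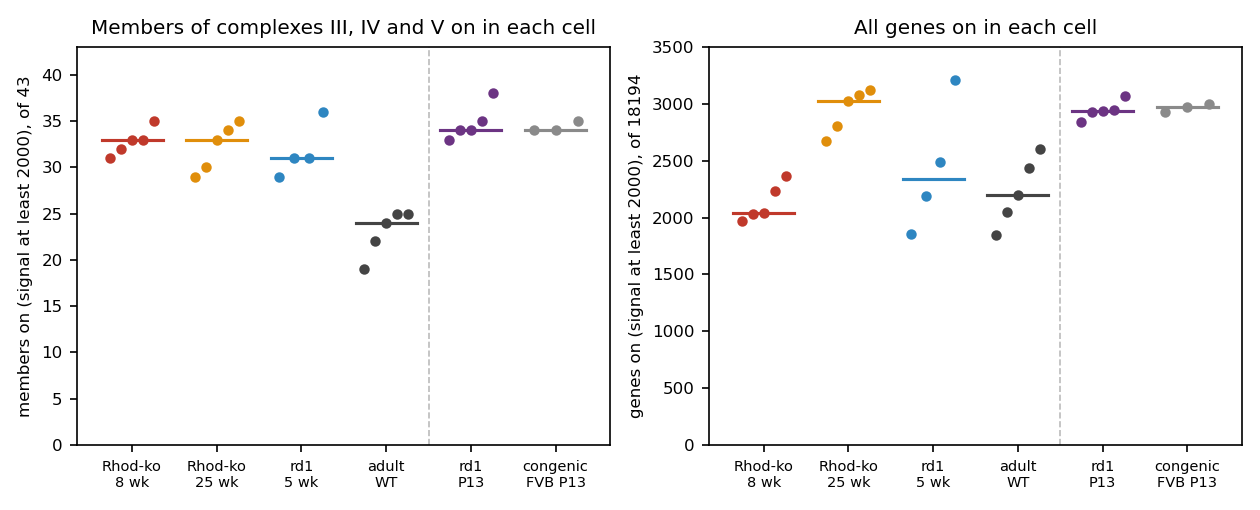
Left, the number of the 43 members of complexes III, IV and V on in each cell. Right, the number of all 18194 genes on in the same cells. Each point is 1 cell, bars are medians, and the dashed line parts the adult from the P13 comparison. The adult WT cells, with 19 to 25 members on, lie under all other cells on the left. On the right they lie among the Rhod-ko 8 week and rd1 5 week cells and under the cells of the other groups.

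Among themselves the members ranged widely. Cox7a2, Cox8a, Atp5a1, Atp5g3 and Atp5j2 were on in all 27 cells. Sdhd, the membrane anchor of complex II, and Cox7b2 were on in none, and the tissue-restricted forms Cox6a2 (1 cell), Cox8b (1), Cox8c (2), Cox7a1 (3) and Cox6b2 (6) were rarely on. Cox7c, a ubiquitous subunit, was on in only 2 cells. A median of at least 2000 over all cells was reached by 38 members: 2 of complex II, 8 of complex III, Cycs, 10 of complex IV and all 17 of complex V. Passing used the cells that were then compared, so counts among these genes are no support.

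With signals as deposited, most of complex V was higher than adult WT in each mutant. Complex III was mixed, and complex IV had a smaller share higher and none lower. Complex II held the only member that was lower in all 3 comparisons. At 8 weeks in Rhod-ko 25 of the 48 members were higher and 3 lower, where 6.17% of all genes were higher and 5.12% lower. Among expressed genes the shares were 41.6% and 28.5%. Without the Rhod-ko cells that had 5 or more microglia or rod markers on, 24 members were higher and 3 lower, with the share of all genes not counted. At 25 weeks in Rhod-ko 18 members were higher and 6 lower, where 7.9% and 3.7% of all genes were higher and lower, and 42.4% and 15.9% of expressed genes. At 5 weeks in rd1 19 members were higher and 6 lower, beside 6.35% and 4.25% of all genes, and 36.3% and 21.2% of expressed genes. The members as a whole stood far above all genes, but most of the 18194 genes cannot be called. Both medians lay under the floor for 14593, 14411 and 14133 of them. Of the 38 members that were expressed genes, 65.8%, 44.7% and 47.4% were higher at 8, 25 and 5 weeks. The lower shares were 7.89%, 15.8% and 15.8%. Beside expressed genes the higher share was thus close at 25 weeks only, though passing the median used the same cells.

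By complex, the higher members at 8 weeks were 0 of 4 in complex II, 3 of 9 in complex III, 7 of 17 in complex IV and 14 of 17 (82.4%) in complex V. At 25 weeks they were 1 of 4, 2 of 9, 5 of 17 and 10 of 17 (58.8%). In rd1 at 5 weeks they were 0 of 4, 3 of 9, 6 of 17 and 10 of 17 (58.8%). The lower members at 8 weeks were 2 in complex II, 0 in complex III, 0 in complex IV and 1 in complex V. At 25 weeks they were 1, 4, 0 and 1, so complex III had more lower than higher members there. In rd1 at 5 weeks they were 2, 2, 0 and 1, beside Cycs. Counted over all members, only the higher share of complex V lay above that of expressed genes in all 3 comparisons. However, all 17 members of complex V were expressed genes, and only 10 of 17 in complex IV. The higher members of complex IV all lay among those 10. They were 7, 5 and 6 of those 10, shares that also lay above the expressed genes. Passing the median used the same cells, so neither complex is read as set apart by these counts. The 3 comparisons share the adult WT cells, and 14 members were higher in all of them: Uqcr11 in complex III, 5 members of complex IV and 8 of complex V. The share of all genes called in all 3 was not counted. The 14 members, and Sdha as the only one lower in all 3, are therefore a list and not a result about the members. The size of this picture at 25 weeks rested on the scaling of the arrays. When every array was set to the same 90th percentile, 11 members were higher and 17 lower there, with 6 higher and 4 lower in complex V, while the median difference of the expressed genes moved to -0.46 (0.52 as deposited).

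**Figure D2:**
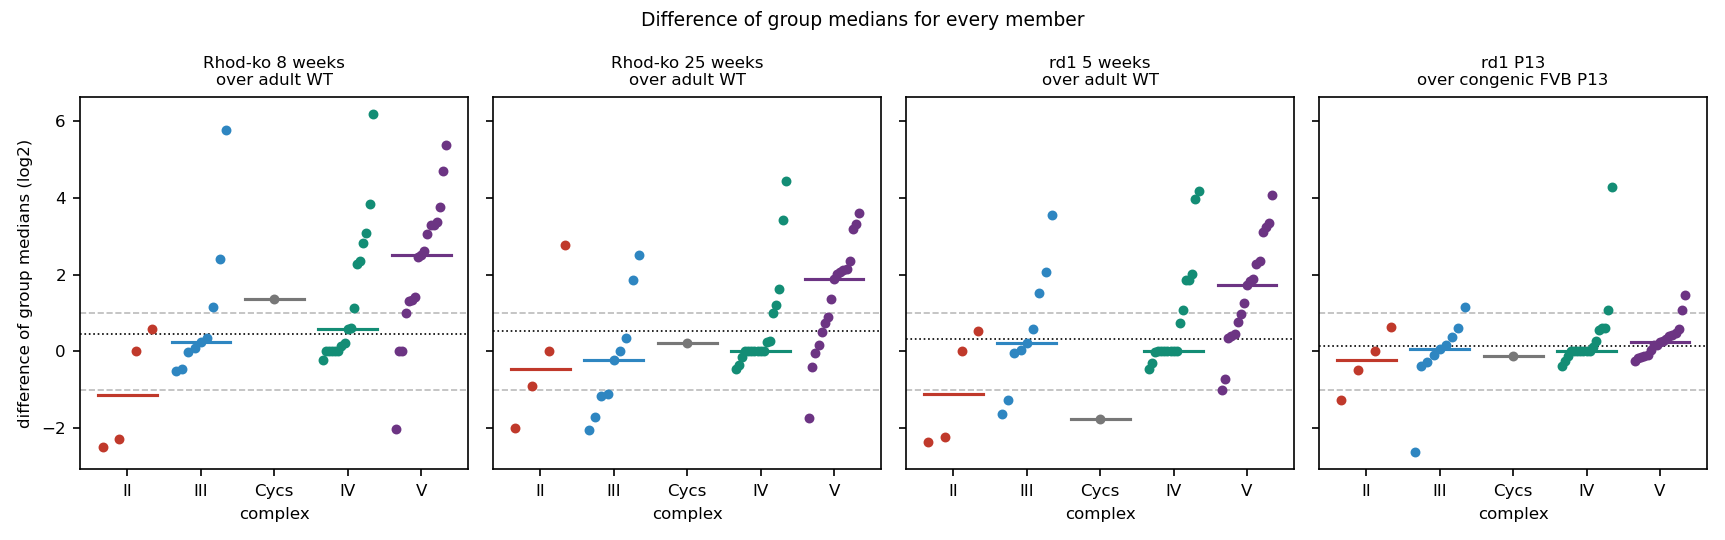
Each point is 1 member, at the log2 difference of group medians (floored at 1000) in 1 comparison, with bars at the median of each complex. Dashed lines mark 2-fold, and the dotted line is the median of the 1513 expressed genes. With signals as deposited, complex V sits highest against adult WT, with a median of 2.52 at 8 weeks, 1.88 at 25 weeks and 1.74 in rd1 at 5 weeks, and close to 0 at P13 (0.25).

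Within complex II, Sdha, the catalytic flavoprotein, was lower in the 3 adult mutant groups. Sdha read 5954, 4064, 28568, 9110 and 4483 in Rhod-ko cells at 8 weeks, against 16503, 32611, 15297, 29688 and 28902 in adult WT cells. In Rhod-ko at 25 weeks it read 4821, 7232, 3492, 13363 and 17569, and in rd1 at 5 weeks 6648, 5773, 180 and 23221. It was on in every adult WT cell and highest there as a group, but 1 cell of each mutant group reached the adult WT range. At P13 Sdha read 5471 to 9916 in rd1 cells and 4185, 5820 and 3944 in congenic FVB cells with the normal Pde6b gene. All P13 cells thus lay under every adult WT cell, so low Sdha was not particular to the mutants. The congenic FVB cells were also younger and rich in vascular markers. The differences were -2.28 at 8 weeks, -1.999 at 25 weeks and -2.22 at 5 weeks (log2), with SDs of 1.14, 0.98 and 1.87 among mutant cells and 0.52 among adult WT cells. Sdha stayed at least 2-fold lower under both other scalings, and also with 1 probe set per gene, where the differences were -1.47, -1.78 and -2.78.

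The other members of complex II did not share this. Sdhb, the iron-sulfur subunit, read 6797, 1330, 4736, 8728 and 8179 in Rhod-ko cells at 25 weeks, against 464, 479, 120, 1654 and 1144 in adult WT cells, where it was on in no cell. It was at least 6.8-fold higher at 25 weeks, while at 8 weeks (793 to 3121) and in rd1 at 5 weeks (239 to 2096) the differences were 0.58 and 0.53. Sdhc, a membrane subunit, read 1760, 1416, 1061, 1781 and 299 in Rhod-ko cells at 8 weeks, against 129, 2083, 7925, 10929 and 17496 in adult WT cells. Its difference was -2.48 at 8 weeks, -0.89 at 25 weeks and -2.35 in rd1 at 5 weeks, but 0.50, 2.09 and 0.63 when the probe set that may match several transcripts was left out, so no direction can be given for it. Sdhd stayed at 178 or less in every cell and has no fold.

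Set against complexes III to V as a whole, complex II lay lower, but by an amount, and at 25 weeks with a sign, that rested on the choice of probe sets. Its median difference minus that of the 43 other members was -2.29 at 8 weeks, -0.71 at 25 weeks and -1.86 in rd1 at 5 weeks. Without the probe sets that may match several transcripts these values were -0.36, 0.89 and -0.07, and with 1 probe set per gene -1.05, 0.31 and -0.72. Cell by cell, the median of complex II minus that of the others was -3.80 to -2.65 in Rhod-ko at 8 weeks, -1.97 to -0.32 in Rhod-ko at 25 weeks and -4.14 to -1.87 in rd1 at 5 weeks, against -2.36 to 1.21 in adult WT. At P13 it was -3.25 to -1.55 in rd1 and -2.26 to -1.16 in congenic FVB. The Rhod-ko 8 week cells thus lay under every adult WT cell, and the other groups overlapped with adult WT. In every Rhod-ko 8 week and adult WT cell Sdha was the highest of the 4 genes and so did not enter the complex II median, which there rested on Sdhb, Sdhc and the floor, and Sdhc has no settled direction.

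**Figure D3:**
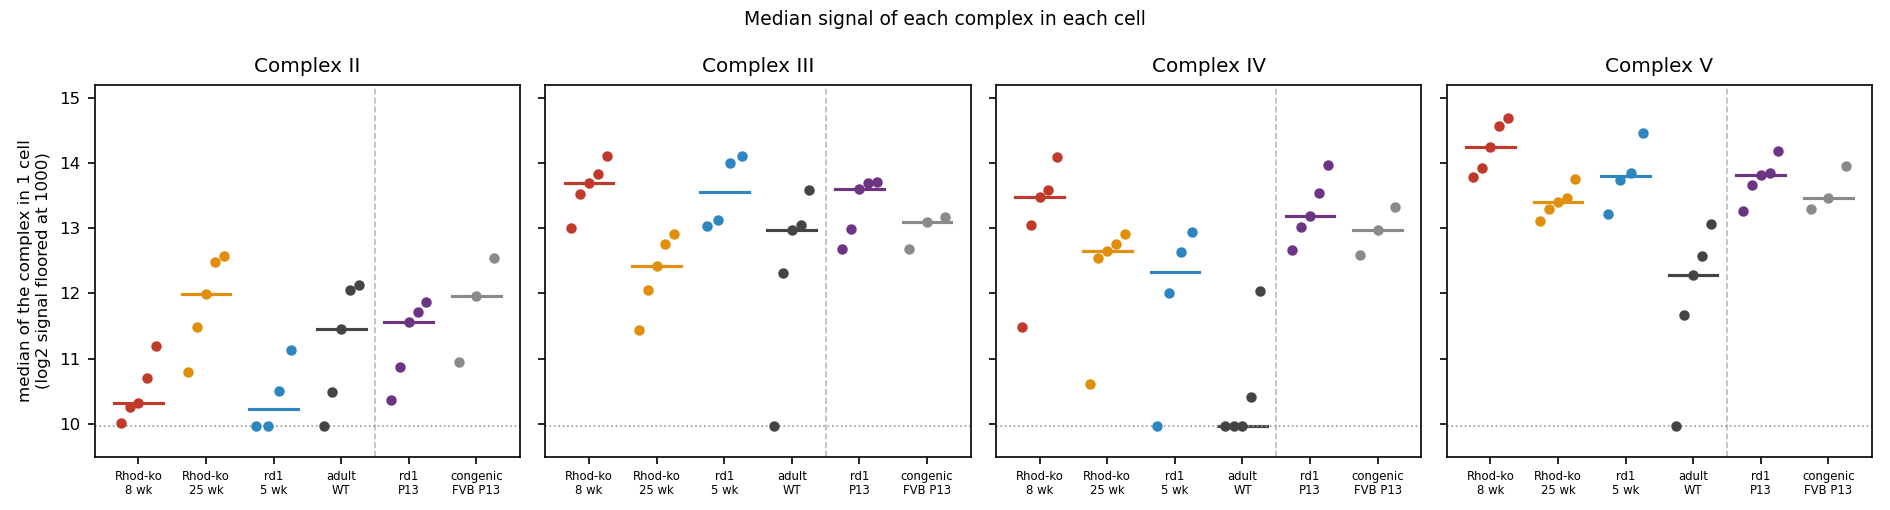
The median log2 signal, floored at 1000, of the members of each complex in each cell. Points are cells, bars are group medians, and the dotted line is the floor. Complex V in Rhod-ko cells at 8 weeks (13.8 to 14.7) lies above every adult WT cell (9.97 to 13.1), and complex II in the same cells (10.0 to 11.2) lies within the adult WT range.

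In complex III, Uqcr11, a small subunit, stood out. It read 74688, 73657, 54449, 13495 and 13222 in Rhod-ko cells at 8 weeks, against 142, 72, 39, 4457 and 7054 in adult WT cells, with no overlap and a fold of at least 54.4. At 25 weeks the bound was 3.61-fold (1452 to 7726) and in rd1 at 5 weeks 11.7-fold (417 to 21441), and these cells overlapped with adult WT. Cyc1, the cytochrome c1 subunit, read 5676, 3612, 6926, 8388 and 4580 in Rhod-ko cells at 25 weeks, against 10, 15, 34, 77 and 3511 in adult WT cells, again with no overlap (at least 5.68-fold). At 8 weeks Cyc1 was on in only 2 of 5 Rhod-ko cells (36 to 5977), and in rd1 at 5 weeks in 2 of 4 (5 to 18604). Cyc1 was thus high in all Rhod-ko cells at 25 weeks and variable in the other adult mutants.

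The core proteins Uqcrc1 and Uqcrc2 were not 2-fold higher in any adult comparison. Uqcrc2 read 1786, 5936, 2906, 1571 and 2042 in Rhod-ko cells at 25 weeks, against 8503, 88, 269, 15171 and 14654 in adult WT cells, a difference of -2.06, and the difference was -1.64 in rd1 at 5 weeks and 0.09 at 8 weeks. Uqcrc1 gave -1.17 at 25 weeks, -1.26 at 5 weeks and -0.46 at 8 weeks. In adult WT both genes were split between cells, with 3 cells on and 2 off, and without cell MG1, MG22 or MG15 the count of lower members at 25 weeks was 3 in place of 6. Uqcrfs1, the Rieske iron-sulfur protein, was on in only 8 of 27 cells and gave differences of 0.35, 0 and 1.53. Uqcr10 was lower at 25 weeks (-1.71), where 2 of 5 Rhod-ko cells and 2 of 5 adult WT cells had it off. Uqcrq was higher at 8 weeks (2.40, SD 1.01 among Rhod-ko and 1.58 among adult WT cells). Without probe sets that may match several transcripts its value was 0, as arises when both medians lie under the floor. No fold can be given for it in that setting.

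Cytochrome c itself, the mobile carrier between complexes III and IV, differed in direction between mutants. Cycs read 8709, 6489, 12595, 33995 and 2664 in Rhod-ko cells at 8 weeks, against 7882, 20698, 107, 3370 and 494 in adult WT cells, a difference of 1.37. In rd1 at 5 weeks it read 8901, 75, 413 and 153 and was at least 3.37-fold lower. At 25 weeks the difference was 0.22. The groups overlapped in each case.

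**Figure D4:**
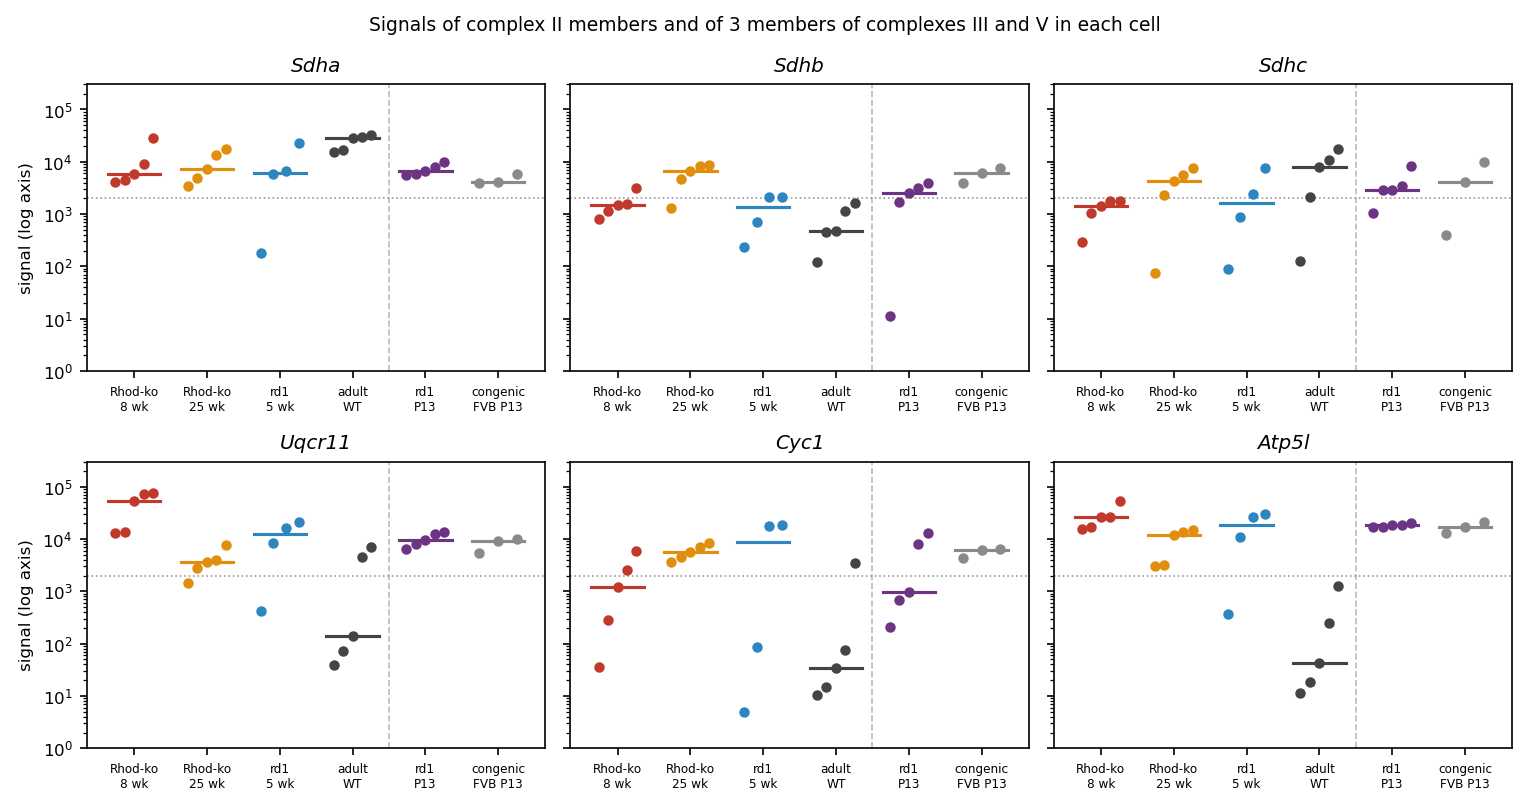
Signals in each cell on a log axis for the complex II members Sdha, Sdhb and Sdhc, the complex III members Uqcr11 and Cyc1, and Atp5l of complex V. Points are cells, bars are medians, and the dotted line is the threshold of 2000. By medians Sdha is lower in the 3 adult mutant groups than in adult WT and Uqcr11 and Atp5l are lowest in adult WT, whereas the order for Sdhc turned round when a probe set that may match several transcripts was left out.

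Complex IV was led by the paired isoforms of subunit 4, which regulates the enzyme. Cox4i1, the form found in most tissues, read 57120, 128166, 95576, 64435 and 72656 in Rhod-ko cells at 8 weeks, against 172, 202, 56, 39047 and 6517 in adult WT cells, with no overlap and a fold of at least 72.7. At 25 weeks the bound was 21.8-fold (13127 to 28816) and in rd1 at 5 weeks 15.7-fold (7384 to 87157). The adult WT cells formed 2 sets for this gene, with cells MG15 and MG3 on and MG1, MG16 and MG22 off, and all cells of the other conditions had it on.

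Cox4i2, the form described in lung and in low oxygen, was on in all 10 Rhod-ko cells. It read 27226, 19781, 2878, 3369 and 14264 in Rhod-ko cells at 8 weeks and 8230, 8694, 10684, 19287 and 37723 at 25 weeks, against 49, 59, 79, 8933 and 7409 in adult WT cells. In rd1 at 5 weeks it read 12112, 529, 27124 and 91175. Its folds were at least 14.3, 10.7 and 18.1. The same 2 adult WT cells, MG15 and MG3, held both isoforms. At P13 rd1 cells B4, A4 and B3 read 20441, 19663 and 26290 and cells A1 and B1 249 and 201, against 1346, 87 and 126 in congenic FVB cells. The rd1 cells with high Cox4i2 were those with 1 to 3 vascular markers on, and the 2 low ones had 10 and 8. Within rd1, Cox4i2 thus split with the vascular markers, and the rd1 cells rich in these markers (249 and 201) read within the range of the congenic FVB cells, which had 9 or 10 on. No congenic FVB cell with few vascular markers was there to set beside the other rd1 cells.

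Of the other pairs, mostly the widely used form was on. Cox6a1 was 1.13, 1.62 and 2.02 higher (log2) in the 3 adult comparisons, although at a common 90th percentile it was at 0.15, -0.26 and 1.27, while its muscle form Cox6a2 had medians under the floor in all groups. Cox7a2 read 134170, 83144, 75719, 132742 and 194247 in Rhod-ko cells at 8 weeks, against 38857, 27236, 3627, 25293 and 29006 in adult WT cells (2.29, no overlap), but it differed by -0.14 and -0.02 at 25 weeks and in rd1 at 5 weeks. With 1 probe set per gene these differences were 7.05, 4.63 and 4.74, so they rest on which probe set is read. Its muscle form Cox7a1 was on only in Rhod-ko cells 7 and 8 at 8 weeks (24326 and 32230), which had the most rod markers of that group, and in rd1 cell A1 at 5 weeks (3700). It was off in the P13 cells, which had up to 10 rod markers on, and a link between Cox7a1 and these markers was not tested. Cox7a2l, a factor in joining complexes III and IV, gave 0.21, -0.46 and 0.75, with probe sets of opposite sign at 8 weeks (-1.11 and 3.29). Cox6b1 gave 0.58, 0.26 and -0.46, with opposite probe sets in rd1 at 5 weeks (-1.25 and 2.51), and its testis form Cox6b2 was on in 6 cells without order. Cox8a, on in all cells, differed by -0.23, -0.34 and -0.29. Complex IV had no member that was 2-fold lower in any comparison as deposited, and 7 of its 17 members stayed under the floor in both groups at 25 and 5 weeks.

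Complex V held most of the higher members. Atp5l, subunit g of the membrane part, read 15519, 26834, 16932, 26134 and 52495 in Rhod-ko cells at 8 weeks and 13722, 3116, 12100, 14952 and 3124 at 25 weeks, against 18, 11, 42, 1292 and 250 in adult WT cells. It was on in no adult WT cell and did not overlap with adult WT in either Rhod-ko group (at least 26.1-fold and 12.1-fold). In rd1 at 5 weeks it read 10940, 30054, 368 and 26231 (at least 16.9-fold). Atp5e, the epsilon subunit, was at least 41.4-fold higher at 8 weeks (2834 to 57589, against 19 to 7240 in adult WT). Atp5j, a coupling factor, had a bound of 10.2-fold higher in rd1 at 5 weeks (9329 to 13388, against 17 to 21601 in adult WT) and its difference at 25 weeks was 3.33. In adult WT each of these 3 subunits was on in at most 2 of 5 cells.

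The alpha and beta subunits of the catalytic head differed less. Atp5a1, the alpha subunit, was on in all cells and differed by 1.41, 0.90 and 1.27 in the 3 adult comparisons, but at a common 90th percentile by 0.20, -1.02 and 0.49. Atp5b, the beta subunit that holds the active site, read 18888, 6543, 10489, 3904 and 19461 in Rhod-ko cells at 8 weeks, against 16797, 112, 70, 10494 and 12615 in adult WT cells, with no difference in the medians, and gave 0.73 at 25 weeks (-0.39 at a common 90th percentile) and 0.99 at 5 weeks. Atp5k, subunit e, showed the 2 Rhod-ko ages on either side of adult WT: it read 63189, 132358, 85630, 41495 and 102769 at 8 weeks and 1213, 3606, 3745, 2581 and 1954 at 25 weeks, against 14016, 9896, 1390, 377 and 8671 in adult WT. The differences were 3.30, with no overlap, and -1.75. In rd1 at 5 weeks the only lower member of complex V was Atp5mpl, a small associated protein, at -1.01 (149 to 12649, against 636 to 14292 in adult WT).

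The 3 genes for the membrane ring subunit c, which encode the same mature protein, did not move together. At 8 weeks Atp5g3 read 11732, 2342, 9240, 6101 and 4246 in Rhod-ko cells, under all adult WT cells at 40098, 13687, 20147, 24785 and 39455 (4.06-fold lower, no overlap). Atp5g1 in the same Rhod-ko cells read 17575, 210, 14314, 19770 and 17285, against 121, 16381, 13322, 155 and 1760 in adult WT (9.82-fold higher by medians, with overlap). Atp5g2 was on in none of the Rhod-ko cells at 8 weeks (192 to 919), in 4 of 5 at 25 weeks (1389 to 7278) and in 2 of 5 adult WT cells (66 to 8881). In Rhod-ko at 25 weeks Atp5g3 (13103 to 22320, -0.42) overlapped with adult WT. Atp5g3 was the only member of complex V that was lower at 8 weeks, and stayed so under the other scalings (-1.58 and -2.88).

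**Figure D5:**
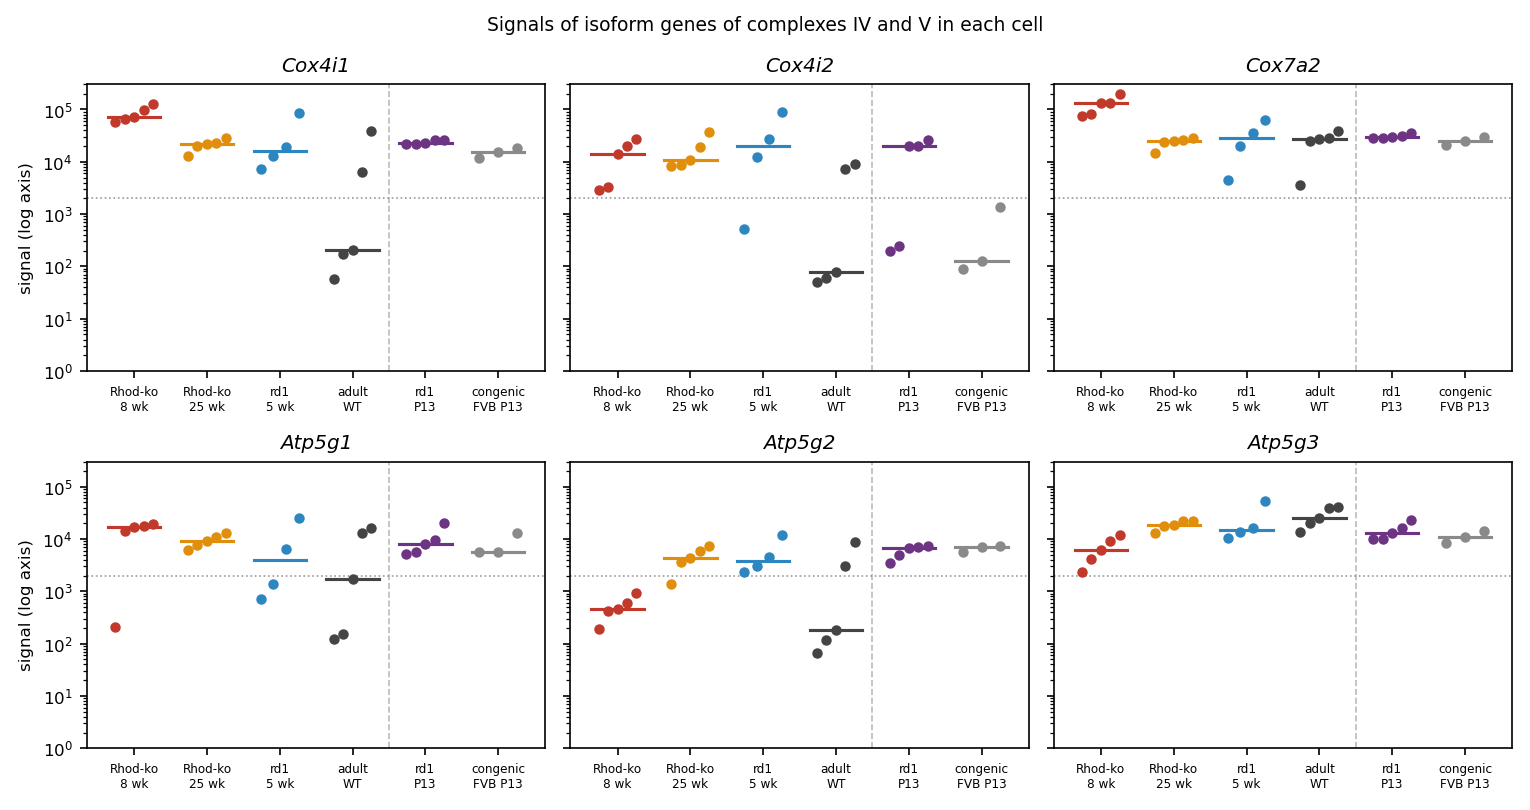
Signals in each cell on a log axis for the complex IV genes Cox4i1, Cox4i2 and Cox7a2 and the 3 genes of ATP synthase subunit c, Atp5g1, Atp5g2 and Atp5g3. Points are cells, bars are medians, and the dotted line is the threshold of 2000. Rhod-ko cells at 8 weeks lie above adult WT for Cox4i1 and Cox7a2 and under it for Atp5g3, and Cox4i2 parts the rd1 P13 cells into 3 high and 2 low.

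Members whose cells did not overlap at all were few. At 8 weeks 7 members were higher without overlap (Uqcr11, Cox4i1, Cox7a2, Atp5j2, Atp5k, Atp5l and Atp5mpl) and Atp5g3 was lower, where 0.747% of all genes were higher and 0.522% lower in that way. At 25 weeks Cyc1 and Atp5l were higher and no member was lower (0.357% and 0.159% of all genes). In rd1 at 5 weeks no member parted the groups (0.313% and 0.11% of all genes). Most of all genes had both group medians under the floor and were unlikely to part. Of the 1513 expressed genes, 98 were higher and 70 lower without overlap at 8 weeks. At 25 weeks 35 were higher and 23 lower in that way, and in rd1 at 5 weeks 33 and 7. Some of the members named here fall outside the naming rule and were picked after their values were seen.

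At P13 the rd1 cells, 2 of them rich in vascular markers, and the congenic FVB cells, all rich in them, had similar medians in all complexes, and the part of these markers was not tested. Of the 48 members 5 were higher (Uqcr10, Cox4i2, Cox5b, Atp5k and Atp5md) and 2 lower (Sdhb and Cyc1), beside 4.79% and 6.41% of all genes and 23.7% and 12.1% of expressed genes. Sdhb read 2540, 11, 1686, 3118 and 3896 in rd1 cells, against 3930, 6083 and 7592 in congenic FVB cells, without overlap (2.39-fold lower), and Uqcr10 read 18293, 17852, 13303, 19198 and 10511, against 9484, 8033 and 2712 (2.22-fold higher, without overlap). Cox4i1 did not overlap either but differed by only 0.60, and 0.484% of all genes were higher and 1.06% lower without overlap. Of the 1513 expressed genes, 55 were higher and 37 lower in that way. Cyc1 was on in rd1 cells A4 and A1 (13314 and 8117) and in all congenic FVB cells (4430 to 6446), and its median was at least 6.18-fold lower. Sdha differed by 0.65 and Sdhc by -0.47. Without rd1 cells A1 and B1, 7 members were higher and 3 lower. With the congenic FVB cells in place of adult WT, rd1 at 5 weeks had 7 members higher in place of 19. The share of all genes was not counted for these changed sets of cells, so these counts are not read as results about the members.

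Other mitochondrial genes were listed for comparison. Of 9 outer membrane and carrier genes, 4 were higher and 0 lower at 8 weeks, 3 and 1 at 25 weeks, 2 and 1 in rd1 at 5 weeks and 3 and 0 at P13. These counts are small, and 41.6%, 42.4%, 36.3% and 23.7% of expressed genes were higher in the same comparisons, against 6.17%, 7.9%, 6.35% and 4.79% of all genes. The lower shares were 28.5%, 15.9%, 21.2% and 12.1% of expressed genes and 5.12%, 3.7%, 4.25% and 6.41% of all genes. No list here is read as standing apart. Slc25a3, which imports the phosphate that complex V needs, was higher in all 3 adult comparisons (2.75, 1.53 and 2.60), and Slc25a5, an ADP/ATP carrier, gave 2.13, 1.95 and 3.21. Of 11 tricarboxylic acid cycle enzymes beside complex II, 1 was higher at 8 weeks, 3 at 25 weeks and 3 in rd1 at 5 weeks, with none lower. At P13 0 were higher and 4 lower, among them Suclg2 (-2.71), a subunit of succinyl-CoA ligase, which makes the substrate of complex II. Of 29 assembly factors 5 were higher and 2 lower at 8 weeks, with Coa3, a complex IV assembly factor (15997 and 295 as the medians in Rhod-ko and adult WT), and Atpif1, the inhibitor of ATP synthase, at 2.62 (130324 and 21270 as the medians in Rhod-ko and adult WT). The counts were 4 and 1 at 25 weeks, 1 and 2 in rd1 at 5 weeks and 3 and 2 at P13. Of 14 genes that control mitochondrial genes, 11 had both medians under the floor at 8 weeks, and Nrf1 (1.78 at 8 weeks) and Polg, the mitochondrial DNA polymerase (-3.15 at 25 weeks, -3.21 in rd1 at 5 weeks and 1.22 at P13), passed 2-fold, as did Yy1 (1.78 in rd1 at 5 weeks and -1.17 at P13). The subunits encoded in mitochondrial DNA were not measured here.

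RefSeq promoters of GRCm38.p6, from 250 bases before to 50 after the start, were found for 36 of the 48 members. Searched on both strands, the NRF1 core GCATGCGC was present in 22.2% of these genes, against 3.05% of 27025 genes, and the ETS core CCGGAAG of GABPA in 36.1%, against 9.93%. The ERR site AAGGTCA was found in 13.9% against 5.38%, the YY1 core ATGGCGG in 5.56% against 4.69% and the SP1 box GGGCGG in 41.7% against 38.2%. A GCGCATGCGC run holds the NRF1 core on both strands and was counted once. The NRF1 core was in 1 of 3 complex II promoters (Sdhb), 2 of 5 of complex III, 1 of 12 of complex IV and 3 of 15 of complex V. The promoters shown are those of the members that the comparisons turned on, Atp5l and Uqcr11, both off in most adult WT cells, and Sdha, which was highest in adult WT. Atp5l lies at chr9:44920693-44920992, Uqcr11 at chr10:80406772-80407071 and Sdha at chr13:74350191-74350490, all on the minus strand, and capitals mark matches to the NRF1, GABPA, YY1 and ERR letters. The Sdha window held none of these 4 motifs. Cox5a, Atp5c1, Atp5d and Atp5pb, higher in all 3 adult comparisons, held none of them either, and Atp5k, lower at 25 weeks, held the same 3 as Atp5l. A match is only a match of letters.
Atp5l: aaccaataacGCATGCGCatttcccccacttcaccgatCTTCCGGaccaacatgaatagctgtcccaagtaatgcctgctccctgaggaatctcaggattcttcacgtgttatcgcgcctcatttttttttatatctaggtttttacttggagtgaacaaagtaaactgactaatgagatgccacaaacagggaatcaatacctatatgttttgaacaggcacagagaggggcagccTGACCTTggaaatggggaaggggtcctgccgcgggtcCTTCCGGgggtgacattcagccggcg
Uqcr11: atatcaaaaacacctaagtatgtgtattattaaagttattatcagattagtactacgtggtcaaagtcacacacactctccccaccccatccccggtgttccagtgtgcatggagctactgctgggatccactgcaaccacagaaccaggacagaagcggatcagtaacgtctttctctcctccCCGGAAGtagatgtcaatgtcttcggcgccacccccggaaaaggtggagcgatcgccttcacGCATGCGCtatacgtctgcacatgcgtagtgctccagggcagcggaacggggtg
Sdha: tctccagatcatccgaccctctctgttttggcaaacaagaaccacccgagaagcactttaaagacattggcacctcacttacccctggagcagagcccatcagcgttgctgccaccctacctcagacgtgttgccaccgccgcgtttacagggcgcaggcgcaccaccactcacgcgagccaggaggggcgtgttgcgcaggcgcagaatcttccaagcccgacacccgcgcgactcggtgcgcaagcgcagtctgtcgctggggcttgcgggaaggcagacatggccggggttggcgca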

How the data were processed

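Single cells picked as MGCs were lysed, their RNA was reverse transcribed from an oligo dT primer, tailed, amplified by 35 PCR cycles and put on Affymetrix mouse genome arrays. The deposited values are linear intensity signals from MAS5, scaled by the authors to a common trimmed mean, which was 500 on each array here (2% trimmed at each end). Amplification from the 3' end and PCR can lose or inflate single transcripts, so a cell with a low signal may still hold the RNA.

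Of 45101 probe sets, 34958 carry 1 gene symbol in the array annotation, 932 several and 9211 none. Those with a single symbol entered, and no probe set with several symbols names a member. All 48 members matched the RefSeq gene table by Entrez number. Following the study's methods, the strongest probe set of a gene in a given cell was taken. Medians of log2 signals floored at 1000 were compared, with 2-fold as the rule of size, and percentages of all genes called by the same rule are given as the background. No test between conditions was run because no animal is named for any cell. The members, gene lists, motifs and rules were chosen with earlier results of these data known. Named in the text were every Sdh gene, the core and catalytic subunits, the isoform pairs, and in each of complexes III, IV and V the 2 highest and 2 lowest members of each comparison past 2-fold. Genes outside this rule are named where a count of few genes or a closer look called for it.

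Alternatives were 1 probe set per gene, leaving out probe sets with IDs that end in _x_at or _s_at, quantile normalization, a common 90th percentile, floors of 500 and 2000, group means, a filter on the median, leaving out cells, A5 and A6 apart, and congenic FVB as the control. The steps were tested on simulated data with known shifts. Computations used pandas 2.3.3, NumPy 2.4.6 and SciPy 1.17.1 under Python 3.11.15, with matplotlib 3.10.9 for plots.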

Additional observations from a re-analysis of the deposited data

Results flagged for a closer look

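Single cells far from the rest of their group were looked for in 25 sets. Each set was a complex, or complex II minus the others, in a condition. Congenic FVB had too few cells to be included. There were 2 such cells, by a criterion that chance meets in about 5% of sets when values are normally spread. Rhod-ko cell A1 at 25 weeks had a complex IV median of 10.61 (log2 signal), where the next lowest cell of that group had 12.55. Adult WT cell MG3 had a complex IV median of 12.03, where the next highest adult WT cell had 10.42. Cells MG1, MG16 and MG22 all sat at the floor (9.97), so the 5% does not hold for this set.

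Over 144 comparisons of a member between 2 mutant groups, 2 members had every cell of 1 group above the adult WT median and every cell of the other group below it. Atp5k was at 3.30 in Rhod-ko at 8 weeks and at -1.75 at 25 weeks relative to adult WT, a gap of 5.05 (log2). Uqcrh, the hinge protein of complex III, was at 1.15 at 8 weeks and at -1.12 at 25 weeks, a gap of 2.27, and neither of its differences reached 2-fold in size under quantile normalization (0.55 and -0.52). These gaps were not tested.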

How the results depend on the processing

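The 3 complex II contrasts against adult WT moved with the choice of probe sets and with the filter on low values. With 1 probe set per gene, without probe sets ending in _x_at or _s_at, and with a filter on a median of 2000, complex II minus the others was -1.05, -0.36 and -4.67 at 8 weeks (-2.29 in the report), 0.31, 0.89 and -2.35 at 25 weeks (-0.71), and -0.72, -0.071 and -3.36 in rd1 at 5 weeks (-1.86). Without Sdhd, a choice made after seeing the data, it was -3.43 at 8 weeks and -2.97 in rd1 at 5 weeks. With congenic FVB as the control it was -0.69 in rd1 at 5 weeks, where 7 members were higher in place of 19. The share of all genes was not counted for that control. A common 90th percentile gave 5 lower members at 8 weeks in place of 3, and 11 higher and 17 lower at 25 weeks in place of 18 and 6. Group means gave 3 lower members at 25 weeks and 3 in rd1 at 5 weeks, in place of 6 each, and 3 higher members at P13 in place of 5, and the filter left 1 lower member at P13 in place of 2. Per cell, complex II minus the others had a median of -2.59 in Rhod-ko at 8 weeks under quantile normalization (-3.47 as deposited) and of 0.023 in adult WT (-0.068 as deposited). The cause was not tested, except that the filter and the choices of probe sets change which complex II values enter.

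Leaving out each cell in turn gave 22 to 26 higher and 3 or 4 lower members at 8 weeks, 13 to 18 and 3 to 7 at 25 weeks, 15 to 22 and 3 to 6 in rd1 at 5 weeks, and 2 to 5 and 2 to 4 at P13. Shares of all genes were not counted for these reduced sets. At 25 weeks the count of lower members was 3 without adult WT cell MG1, MG22 or MG15, and in rd1 at 5 weeks 3 without MG1. At P13 the count of higher members was 2 without rd1 cell A4 and 3 without rd1 cell B3 or congenic FVB cell A5, and the lower count was 4 without A5. Complex II minus the others ran from -2.50 to -2.02 at 8 weeks, from -1.23 to -0.00067 at 25 weeks (without adult WT cell MG3), from -2.02 to -0.99 in rd1 at 5 weeks and from -0.47 to -0.05 at P13. Over all results and settings, 204 values were labelled as near the reported one, 28 as moved and 3 as reversed. For counts, which have no direction, near was judged by the ratio to the reported count. For complex II minus the others it was judged by the SD among single cells, which is not the spread of a difference between group medians. Many of these settings leave out a single cell, so the tally is no measure of certainty.

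No paired analysis was possible because the labels name cells and not animals, so that a shared number such as A1 pairs nothing, and no test was made. With 3 to 5 cells a group and no repeat arrays beside A5 and A6, loss of a transcript in amplification cannot be told from its absence in a cell.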
